A study of Mus musculus with 64 samples.

Results

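The genes for the colony-stimulating factor (CSF) receptors and ligands measured here were *Csf1r*, *Csf1*, *Csf2ra*, *Csf2rb*, *Csf2rb2* and *Csf3r*. These 6 genes were taken by symbol from the 25239 genes of the batch-corrected count table, and all 6 passed the filter on low counts that left 13584 genes for testing. Microglia were sorted from single retinas of male and female mice heterozygous for *Cx3cr1CreER:R26-tdTomato* on a C57BL/6J background, in which a tamoxifen-inducible Cre driven by *Cx3cr1* turns on tdTomato. All groups, naive included, had tamoxifen eye drops followed by a washout before use. Naive retinas were compared with retinas taken on day 12 or day 28 after an intravitreal injection (IVT) of 2 µL with 1e10 genome copies of an AAV2 that carries no transgene. Per the methods, this vector (io2) holds an oligonucleotide sequence that inhibits TLR9, a sensor of viral DNA. Mice were 3, 9 or 18 months old, and each of the 18 groups of age, sex and day held 2 to 4 libraries of 600 sorted cells, with 19 naive, 22 day 12 and 21 day 28 libraries in all. No sham-injected group was analysed here, so the injection and the vector cannot be told apart.

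CSF1 is a ligand of the receptor tyrosine kinase CSF1R, on which the survival of microglia depends, and IL-34 is its other ligand. The GM-CSF receptor pairs a specific alpha chain, encoded by *Csf2ra*, with the common beta chain, encoded by *Csf2rb*, which also serves the IL-3 and IL-5 receptors. Mice carry a second beta-chain gene, *Csf2rb2*, whose product serves IL-3. *Csf3r* encodes the G-CSF receptor, best known from neutrophils. The beta chains and the G-CSF receptor signal through JAK kinases and STAT factors.

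Library totals ran from 1468478 to 9836173 counts (median 4188992), so that 3 counts, taken as the floor of a library, equaled 0.305 to 2.04 on the counts-per-million scale (CPM, the count over the library total). All 10 microglial markers were present, with a summed level of 33713 to 59233 CPM in naive, 8748 to 37833 CPM in day 12 and 18133 to 47587 CPM in day 28 libraries, and all 10 fell at day 12. Markers of other cells moved with day as well. All 6 measured T cell markers rose at day 12 (summed level in naive 0 to 136 CPM, median 1.29, and at day 12 1.6 to 282 CPM, median 109). Of 7 tested monocyte markers 5 rose and 1 fell (median of the sum 33.1 CPM in naive, 191 at day 12 and 13.04 at day 28). Of 7 tested dendritic cell markers 1 rose and 1 fell. Of 4 tested markers of Muller glia and astrocytes 1 rose and 2 fell, and of 3 tested endothelial markers 1 rose and 0 fell. Of 3 NK cell markers 2 rose at day 12 (median of the sum from 0.398 to 93.0 CPM). Of 5 border macrophage markers 4 fell (median of the sum from 191 to 5.56 CPM), and 7 of 8 rod markers fell. The part of these cells in the changes below was not tested, and in sorted bulk samples fewer cells of a type cannot be told apart from less RNA per cell. Neutrophil and B cell markers were low. *Elane* and *Mpo* were at 0 in all 62 libraries, and the 12 neutrophil markers together had 0 to 40.9 CPM in naive (median 0.226), 0 to 6.51 CPM in day 12 (median 0.472) and 0 to 19.3 CPM in day 28 libraries (median 1.34). Of the 3 tested, *Cxcr2* rose at day 28 (log2 fold change 2.39, edgeR adjusted p = 0.0463). The 3 B cell markers had a median sum of 0 at each stage and at most 7.11 CPM. A library labeled 18-month-old male day 28 replicate 4 carries day 12 in a second label and was kept at day 28. Levels of *Xist* and of 4 Y-linked genes went against the labeled sex in 2 libraries, both labeled day 28, and neither entered a comparison. The other 62 matched their labels.

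Before injection the 6 genes spanned a wide range of levels. Per kilobase of annotated exon, *Csf1r* was highest, with a median of 433 CPM per kb over the 19 naive libraries (301 to 748), and it ranked 33rd of all 25239 genes by mean naive CPM without a length correction. *Csf3r* followed with 47.4 CPM per kb (32.3 to 67.4), then *Csf2ra* with 14.8 (7.17 to 33.4), *Csf2rb* with 7.90 (2.33 to 11.7), *Csf2rb2* with 3.85 (0.0919 to 6.54) and *Csf1* with 1.43 (0 to 2.47). Each receptor gene was above the ligand gene by the median. The order held within most single naive libraries: *Csf1r* exceeded *Csf3r* and *Csf3r* exceeded *Csf2ra* in 19 of 19, *Csf2ra* exceeded *Csf2rb* in 18, *Csf2rb* exceeded *Csf2rb2* in 19, and *Csf2rb2* exceeded *Csf1* in 18. The order of the medians was the same at both later days. Without the length correction *Csf2rb* was above *Csf2ra* by the median, at 57.5 against 42.4 CPM in naive libraries. The medians were 114 against 68.4 CPM at day 12 and 75.4 against 60.5 CPM at day 28. At day 12 the neighbors overlapped most for *Csf2ra* and *Csf2rb*, with *Csf2ra* above in 18 of 22 libraries.

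**Figure D1:**
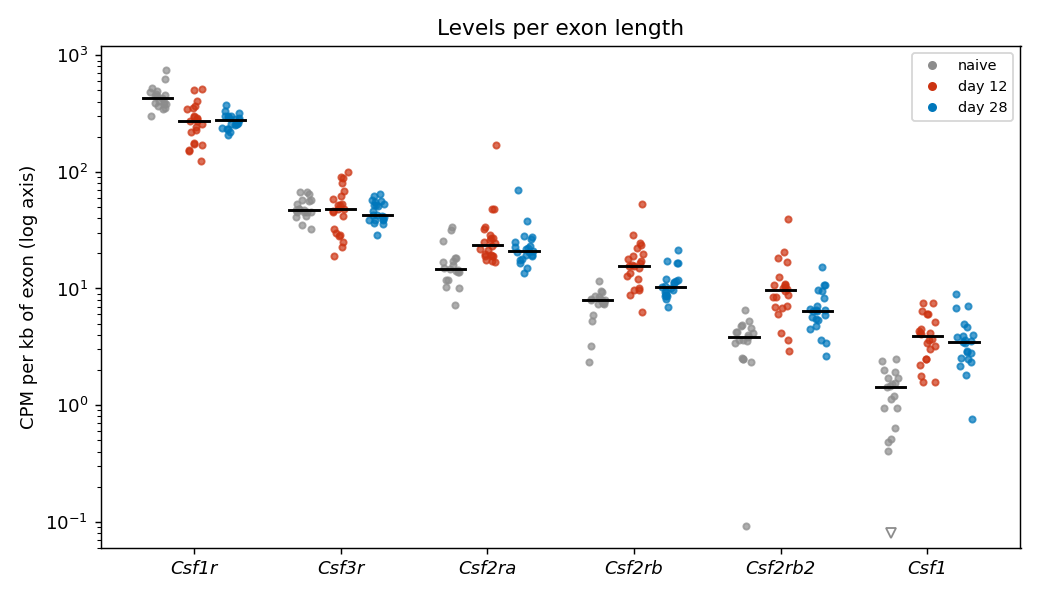
Levels per kilobase of annotated exon (log axis) of the 6 genes, 1 point per library, in naive (gray), day 12 (red) and day 28 (blue) microglia; black lines are medians and the open triangle stands for 1 naive library with no *Csf1* count. The medians fall in the same order from *Csf1r* to *Csf1* at each day, and the distance between *Csf1r* and the other genes narrows after injection.

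Positions are given on GRCm38, the assembly that mm10 names. *Csf1* lies on chromosome 3 (107741048 to 107760469, minus strand), *Csf3r* on chromosome 4 (126024550 to 126044440, plus strand) and *Csf2ra* on chromosome 19 (61223957 to 61228429, minus strand). The beta-chain genes are neighbors on chromosome 15, *Csf2rb2* at 78282507 to 78305721 on the minus strand and *Csf2rb* at 78325752 to 78353847 on the plus strand, 20031 bases apart. Because 3 of these genes rose after injection and *Csf3r* did not pass the test, the RefSeq windows of 300 bases around their starts are shown side by side (GRCm38.p6, 5′ to 3′ on the strand of the gene, chr3:107760420-107760719, chr19:61228369-61228668, chr15:78305672-78305971 and chr4:126024409-126024708).
*Csf1*: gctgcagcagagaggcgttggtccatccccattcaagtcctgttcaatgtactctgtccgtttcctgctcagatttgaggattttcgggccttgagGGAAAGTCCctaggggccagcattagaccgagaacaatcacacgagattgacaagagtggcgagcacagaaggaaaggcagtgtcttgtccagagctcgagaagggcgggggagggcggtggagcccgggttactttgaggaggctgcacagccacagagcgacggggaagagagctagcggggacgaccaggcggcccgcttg
*Csf2ra*: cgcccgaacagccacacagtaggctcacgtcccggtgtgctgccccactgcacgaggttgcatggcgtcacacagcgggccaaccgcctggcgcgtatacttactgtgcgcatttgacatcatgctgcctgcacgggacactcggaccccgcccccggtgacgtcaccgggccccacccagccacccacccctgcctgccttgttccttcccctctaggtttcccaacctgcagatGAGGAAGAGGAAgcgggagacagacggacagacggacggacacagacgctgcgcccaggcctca
*Csf2rb2*: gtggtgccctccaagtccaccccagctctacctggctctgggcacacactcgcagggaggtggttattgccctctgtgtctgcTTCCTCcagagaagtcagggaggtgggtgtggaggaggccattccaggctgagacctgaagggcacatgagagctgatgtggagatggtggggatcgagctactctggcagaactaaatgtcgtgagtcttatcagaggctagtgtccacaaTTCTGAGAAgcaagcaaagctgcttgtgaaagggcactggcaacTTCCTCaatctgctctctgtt
*Csf3r*: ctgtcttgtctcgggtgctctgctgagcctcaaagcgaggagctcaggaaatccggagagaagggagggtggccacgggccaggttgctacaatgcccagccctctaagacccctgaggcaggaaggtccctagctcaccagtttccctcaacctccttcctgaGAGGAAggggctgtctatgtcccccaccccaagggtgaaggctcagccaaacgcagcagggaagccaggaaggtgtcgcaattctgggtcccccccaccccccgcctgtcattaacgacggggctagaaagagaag
Capitals mark matches on either strand to 4 short motifs: a kappa-B core (GGACTTTCC), a STAT element (TTCNNNGAA), a PU.1 core (GAGGAA) and an AP-1 site (TGANTCA). The *Csf1* window held 1 kappa-B match, a motif found in 0.347% of 32544 promoter windows of this length. The *Csf2rb2* window held 1 STAT match, a motif found in 8.33% of windows, and 2 PU.1 matches. At least 1 PU.1 match was found in 28.1% of windows, a share that does not refer to 2 matches. The *Csf2ra* window held 2 PU.1 matches and the *Csf3r* window 1. The AP-1 motif, found in 7.79% of windows, had no match in the 4. These matches describe letters, and no binding was measured.

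Day 12 was compared with naive microglia as the mean change over the 6 combinations of age and sex, to ask which CSF genes differed at the earlier stage after injection. Of the 6 genes, 4 rose (*Csf1*, *Csf2ra*, *Csf2rb*, *Csf2rb2*), *Csf1r* fell and *Csf3r* did not pass the test (edgeR quasi-likelihood test, Benjamini-Hochberg adjusted p under 0.05 over all 13584 genes). At this day 36% of all genes tested were called, so the count of 5 of 6 is read against a wide response. The median log2 fold change was 1.10 over the 6 genes and 0.02 over all genes tested. At day 28 the same 4 genes were higher and *Csf1r* was lower than in naive microglia, where 15.5% of all genes were called, and the median over the 6 genes was 0.68 against 0.02 over all.

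**Figure D2:**
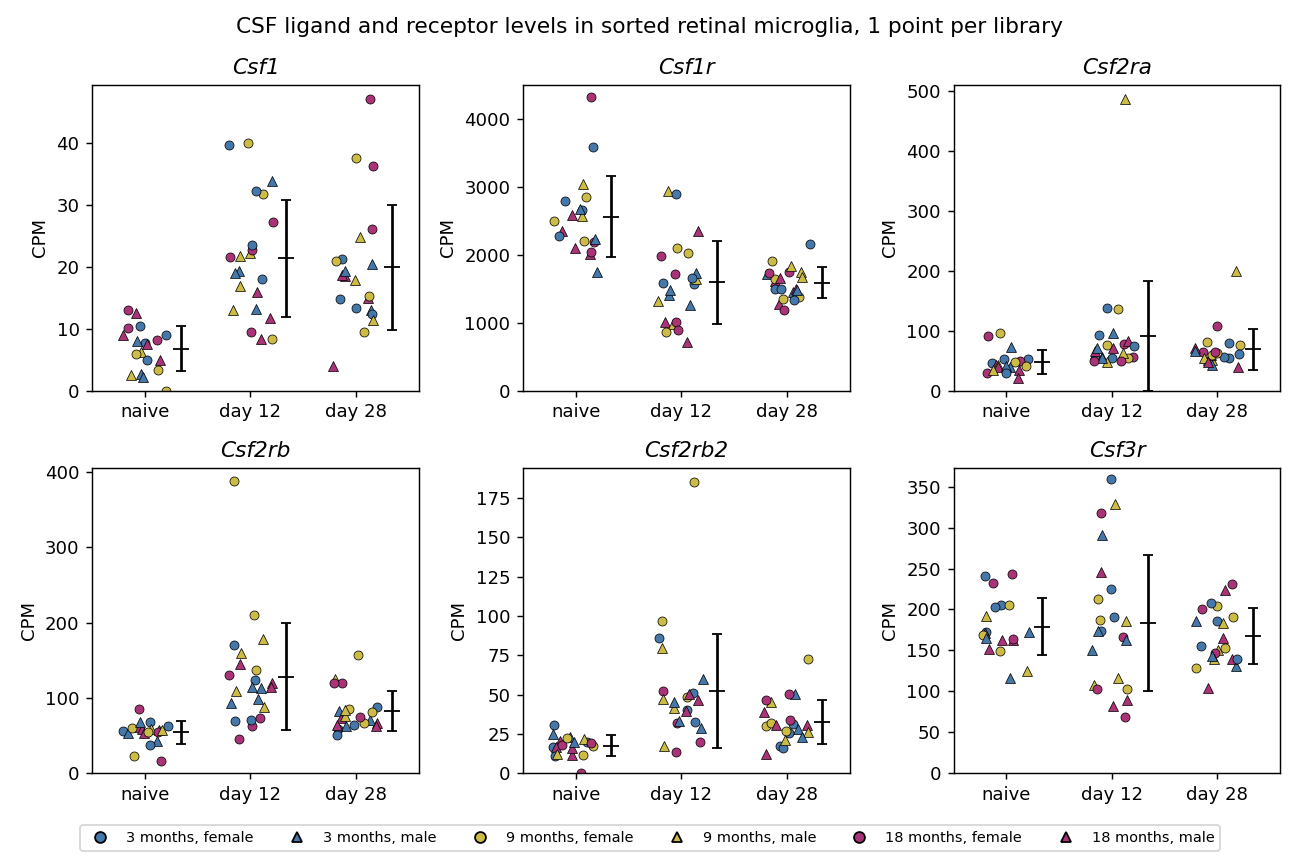
CPM of each gene in naive, day 12 and day 28 microglia, 1 point per library, colored by age and shaped by sex, with the mean and SD beside each day; each axis starts at 0. *Csf1* lies above the highest naive library in 17 of 22 day 12 and 17 of 21 day 28 libraries, *Csf1r* lies below the lowest naive library in 16 of 22 and 16 of 21, and the *Csf3r* ranges overlap.

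The ligand gene *Csf1* was scarce in naive microglia. Its level was 0 to 13.1 CPM (median 7.56) in naive, 8.28 to 39.9 CPM (median 20.5) in day 12 and 4.06 to 46.9 CPM (median 18.4) in day 28 libraries. In 9-month-old females the 3 naive libraries held 0, 3.39 and 5.98 CPM, the 3 day 12 libraries 8.34, 31.7 and 39.9 CPM, and the 4 day 28 libraries 9.52, 15.2, 20.8 and 37.5 CPM. No injected library of these females overlapped a naive one. Taken over all ages and sexes, *Csf1* was 3.55-fold higher at day 12 (log2 fold change 1.83, SE 0.23, edgeR adjusted p = 3.6e-09) and 3.48-fold higher at day 28 (log2 fold change 1.80, SE 0.23, edgeR adjusted p = 2.67e-08). The change between the days was -0.03 on the log2 scale (95% confidence interval -0.44 to 0.39), so no fall by day 28 was detected.

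The fitted rise of *Csf1* varied in size between groups of age and sex, but no test of such a difference passed. The fitted log2 fold change at day 12 was positive in 6 of 6 groups, from 0.59 in 18-month-old males to 2.87 in 9-month-old females, and 4 groups were called: females and males of 3 months (1.93 and 2.33) and of 9 months (2.87 and 2.13). The call in 3-month-old males was lost without naive replicate 1 (2.09) or 3 (2.05), and over all omissions of 1 library the change ran from 2.05 to 3.13. That in 9-month-old males, with 2 naive libraries and an edgeR adjusted p of 0.0482, kept its call in 28 of 62 omissions, and the change was 2.97 without naive replicate 1 and 1.59 without naive replicate 2. The 18-month-old males had 4.999, 7.56, 8.94 and 12.5 CPM in naive and 8.28, 11.7 and 15.9 CPM at day 12, so these ranges overlapped. The 18-month-old females had 8.16, 10.1 and 13.1 CPM in naive, 9.43, 21.6, 22.6 and 27.2 CPM at day 12, and 26.1, 36.3 and 46.9 CPM at day 28. Their day 28 mean of 36.4 ± 10.4 CPM (SD, n = 3) was the highest of the 18 groups. The difference between the day 12 changes at 18 and 3 months was -1.28 on the log2 scale (SE 0.52), with an unadjusted edgeR p of 0.0172 and an adjusted p of 0.323.

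The receptor gene *Csf1r* (chromosome 18, 61100598 to 61132149, plus strand) moved the opposite way to its ligand. It ranged from 1740 to 4318 CPM (median 2501) in naive, from 715 to 2937 CPM (median 1575) in day 12 and from 1184 to 2165 CPM (median 1610) in day 28 libraries. The change from naive was -0.65 on the log2 scale at day 12 (SE 0.11, 0.639-fold, edgeR adjusted p = 2.93e-06) and -0.59 at day 28 (SE 0.11, 0.666-fold, edgeR adjusted p = 6.94e-05). All 21 day 28 libraries were below the naive mean of their own age and sex, and in 6 of 6 groups of age and sex the day 28 libraries did not overlap the naive ones. At day 12 the same was true of 3 groups, and 19 of 22 libraries were below their naive mean. Day 12 libraries were also less alike, with a coefficient of variation of 38.1% against 23.4% in naive and 14.6% in day 28 libraries. The 9-month-old males had 2570 and 3039 CPM in naive and 977, 1319, 1643 and 2937 CPM at day 12, 1 library remaining within the naive range.

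Even after this fall, *Csf1r* was 272.8 CPM per kb at day 12 and 279 CPM per kb at day 28 by the median, 5.62 and 5.83 times *Csf3r* within the same library. The fitted change from day 12 to day 28 was 0.06 on the log2 scale (95% confidence interval -0.15 to 0.27). The 10 microglial markers fell by a median of 1.36 on the log2 scale at day 12, and 9 of them were higher at day 28 than at day 12. Within single groups *Csf1r* was called in 18-month-old females at day 12 (-0.88, edgeR adjusted p = 0.0444), a call that was lost without day 12 replicate 3 (-0.78) or replicate 4 (-0.74) or naive replicate 1 (-0.45) of these females.

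The alpha chain of the GM-CSF receptor was raised less evenly. *Csf2ra* was 20.6 to 95.8 CPM (median 42.4) in naive, 48.7 to 486 CPM (median 68.4) in day 12 and 39.1 to 200.4 CPM (median 60.5) in day 28 libraries. Its mean log2 fold change was 0.93 at day 12 (SE 0.19, edgeR adjusted p = 9.06e-05) and 0.67 at day 28 (SE 0.19, edgeR adjusted p = 0.0113). A single library stood far from its group: the 9-month-old males at day 12 held 48.7, 55.9, 62.7 and 486 CPM against 33.9 and 42.8 CPM in naive. Without that library the change in this group was 0.73 in place of 2.08 on the log2 scale and lost its call (edgeR adjusted p = 0.409), and the mean over all groups was 0.71 (adjusted p = 1.47e-04). The day 28 males of this age held 50.8, 54.0 and 200.4 CPM, and without the highest the mean change at day 28 was 0.49 (adjusted p = 0.0603).

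By collection day, *Csf2ra* was called in 1 of the 2 sets. On the first day alone the change was 0.57 at day 12 (edgeR adjusted p = 0.217) and 0.09 at day 28 (adjusted p = 1). On the second day alone it was 1.05 at day 12 (adjusted p = 1.48e-04) and 1.06 at day 28 (adjusted p = 2.23e-04). The 2 naive libraries with the most *Csf2ra*, a 9-month-old female at 95.8 CPM and an 18-month-old female at 91.9 CPM, were both collected on the first day.

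Both beta-chain genes rose at day 12 and were lower again at day 28. *Csf2rb*, the common beta chain, was 17.0 to 84.9 CPM (median 57.5) in naive, 45.9 to 387 CPM (median 114) in day 12 and 50.2 to 156 CPM (median 75.4) in day 28 libraries. Its level was above the highest naive library in 17 of 22 day 12 and 6 of 21 day 28 libraries. The log2 fold change from naive was 1.28 at day 12 (SE 0.15, 2.42-fold, edgeR adjusted p = 1.52e-10) and 0.69 at day 28 (SE 0.14, 1.61-fold, edgeR adjusted p = 2.89e-04). From day 12 to day 28 it fell by 0.58 on the log2 scale (SE 0.14, edgeR adjusted p = 0.00114), a comparison in which 18.2% of all genes were called and 2 of the 6 members were, both beta chains.

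*Csf2rb2*, the second beta-chain gene, was 0.436 to 31.0 CPM (median 18.2) in naive, 13.9 to 185 CPM (median 45.8) in day 12 and 12.5 to 72.4 CPM (median 30.5) in day 28 libraries. All 22 day 12 libraries were above the naive mean of their own age and sex. The lowest naive value was 1 count, in the library of an 18-month-old female that also had the lowest *Csf2rb* and the highest *Csf1r* of the naive libraries. The log2 fold change was 1.59 at day 12 (SE 0.21, 3.01-fold, edgeR adjusted p = 1.05e-08) and 0.99 at day 28 (SE 0.21, 1.98-fold, edgeR adjusted p = 3.84e-04). From day 12 to day 28 it fell by 0.61 on the log2 scale (SE 0.19, edgeR adjusted p = 0.0215), and this call was lost without 9-month-old female day 12 replicate 3 (-0.53, adjusted p = 0.0527) or without 18-month-old female day 12 replicate 3 (-0.53, adjusted p = 0.0504).

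The fall between the days was called on 1 of the 2 collection days. On the second day the change from day 12 to day 28 was -0.80 for *Csf2rb* (edgeR adjusted p = 1.90e-04) and -0.95 for *Csf2rb2* (adjusted p = 5.05e-04), and on the first day it was -0.22 (adjusted p = 0.623) and -0.07 (adjusted p = 1). The rise from naive at day 12 held on each: 1.61 and 1.26 for *Csf2rb*, and 2.21 and 1.73 for *Csf2rb2*, on the first and second day, all called. The first day held 1 or 2 naive libraries in each group of age and sex, among them the 18-month-old female with 1 *Csf2rb2* count. Without that library the first-day changes at day 12 were 1.57 for *Csf2rb* (edgeR adjusted p = 8.39e-06) and 1.49 for *Csf2rb2* (adjusted p = 0.00215).

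At day 12 the 9-month-old females had the highest mean beta-chain levels, which was not so in naive or day 28 libraries. Their 3 day 12 libraries held 138, 211 and 387 CPM of *Csf2rb* and 48.8, 96.6 and 185 CPM of *Csf2rb2*, where naive females of this age held 23.5, 54.9 and 59.6 CPM and 11.8, 17.1 and 22.4 CPM. The fitted change was 2.25 for *Csf2rb* (edgeR adjusted p = 2.12e-05) and 2.50 for *Csf2rb2* (adjusted p = 9.68e-04). In 18-month-old females the fitted change of *Csf2rb* was 0.81 (adjusted p = 0.188), and it ran from 0.39 without day 12 replicate 3 to 1.30 without naive replicate 2, where it was called (adjusted p = 0.0433). Their libraries held 45.9, 63.5, 74.1 and 131 CPM against 17.0, 54.2 and 84.9 CPM in naive. In 18-month-old males the day 12 libraries (115, 120.4 and 145 CPM) lay above the naive ones (53.7 to 61.9 CPM).

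The 2 beta-chain genes are near-identical in part, and short reads from shared stretches cannot be assigned to either. Of the 75-base windows in their GENCODE transcripts, the length of the reads, 518 were shared, 7.15% of those of *Csf2rb* and 10.6% of those of *Csf2rb2*, and the longest shared run was 242 bases. How the counting treated reads with several matches is not given in the sources used here. The share of *Csf2rb2* in the summed counts of both genes was 2.50 to 34.5% (median 23.9%) in naive, 16.2 to 36.5% (median 28.8%) in day 12 and 16.4 to 37.9% (median 28.7%) in day 28 libraries, so the ranges overlapped. The mean difference from naive was 4.37 percentage points at day 12 (permutation test within age and sex, two-sided, p = 0.0217) and 4.30 at day 28 (p = 0.0339), and both were 0.0339 when adjusted over the 2 comparisons, which share the naive libraries. Without 9-month-old male naive replicate 2 the permutation p was 0.0884 at day 12 and 0.091 at day 28, and without the 18-month-old female naive library with 1 *Csf2rb2* count it was 0.053 and 0.0565.

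**Figure D3:**
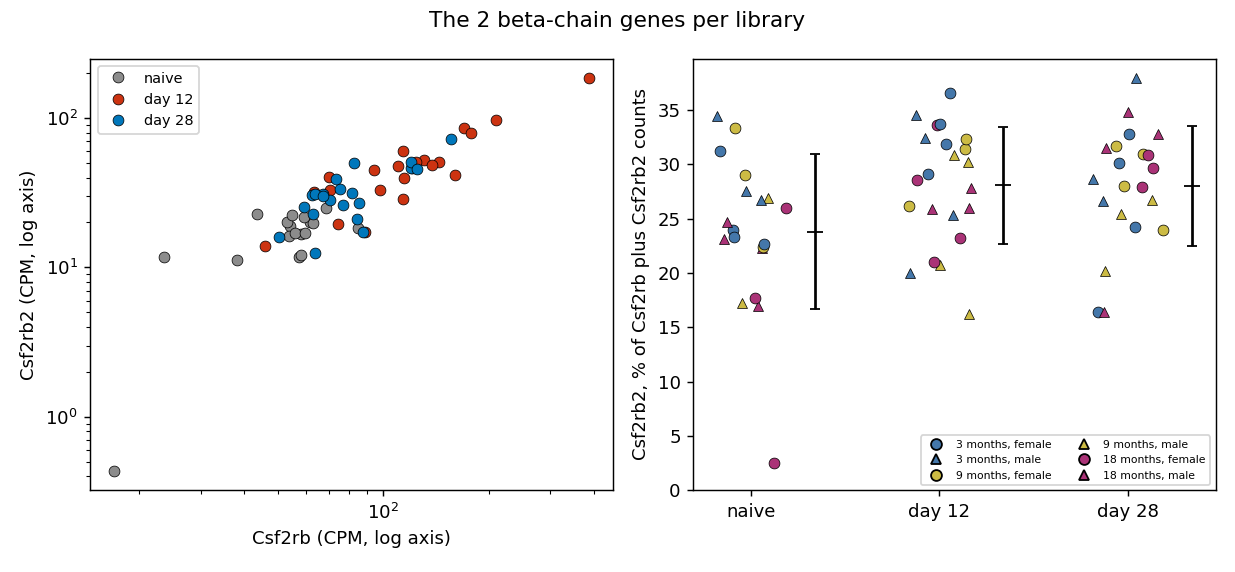
Left, *Csf2rb2* against *Csf2rb* in CPM (log axes), 1 point per library, colored by day. Right, the share of *Csf2rb2* in the counts of both genes, in percent, with mean and SD: the medians are 23.9% in naive, 28.8% at day 12 and 28.7% at day 28, and 1 naive library lies at 2.50%.

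The G-CSF receptor gene *Csf3r* did not change by the test. It was 117 to 243 CPM (median 171) in naive, 68.3 to 359 CPM (median 174) in day 12 and 104 to 232 CPM (median 155) in day 28 libraries. The mean log2 fold change was 0.07 at day 12 (95% confidence interval -0.18 to 0.33, edgeR adjusted p = 0.732) and 0.03 at day 28 (-0.23 to 0.28, adjusted p = 0.982), with 0 libraries of day 28 above the highest naive one. The spread widened at day 12, with 5 libraries above and 7 below the whole naive range and a coefficient of variation of 45.3% against 19.7% in naive and 20.5% in day 28 libraries. These libraries fell on both sides within the oldest groups: the 18-month-old females held 68.3, 103, 166 and 318 CPM at day 12 and the 18-month-old males 82.4, 89.5 and 246 CPM.

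**Figure D4:**
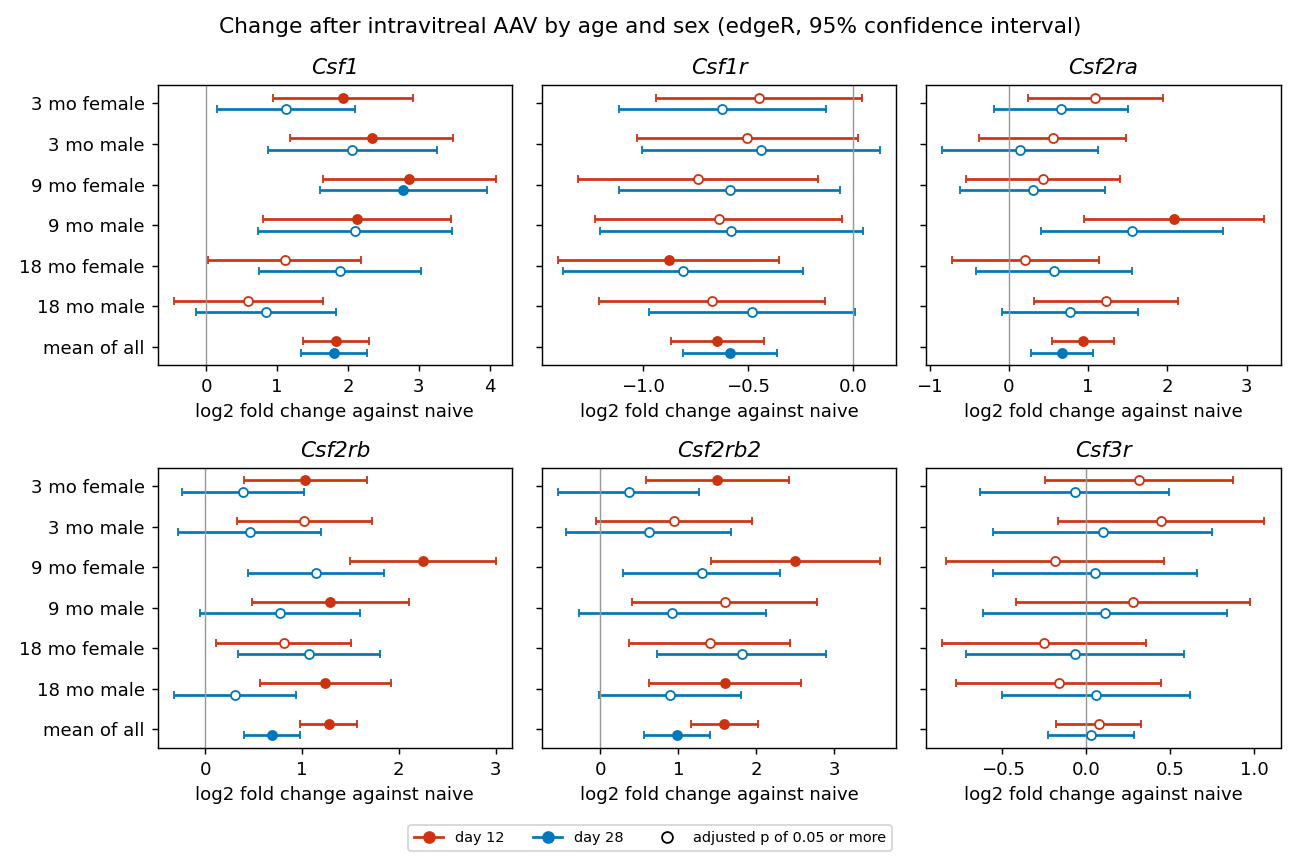
Log2 fold change from naive for each gene in each group of age and sex and as their mean (edgeR, 95% confidence intervals), at day 12 (red) and day 28 (blue); filled points have an adjusted p under 0.05. The *Csf1*, *Csf2ra*, *Csf2rb* and *Csf2rb2* points lie above 0 and the *Csf1r* points below 0 in 6 of 6 groups at both days, while *Csf3r* lies on both sides.

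Within single groups of age and sex the same test had fewer libraries to draw on. Of the 72 tests (6 genes, 6 groups, 2 days) 14 were called (19.4%, against 4.04% of the tests of all genes), 13 of them at day 12. At day 12 the members called were 3 in 3-month-old females (7.36% of all genes called), 1 in 3-month-old males (7.21%), 3 in 9-month-old females (11.2%), 3 in 9-month-old males (4.6%), 1 in 18-month-old females (3.49%) and 2 in 18-month-old males (8.91%). One of the 3 in 9-month-old males was *Csf2rb* (1.30, edgeR adjusted p = 0.049), which kept its call in 25 of 62 omissions of 1 library, with changes of 1.11 to 1.46. At day 28 *Csf1* in 9-month-old females was called (log2 fold change 2.78, SE 0.59, edgeR adjusted p = 0.0044), a call that was lost without naive replicate 1, the library with no *Csf1* count (2.21). The share of all genes called at day 28 was 0.788%, 0.537%, 1.52%, 0.147%, 1.4% and 1.25% in 3-month-old females and males, 9-month-old females and males, and 18-month-old females and males. In simulated counts with known changes, the comparison over all groups at day 12 found 87% of genes given a log2 fold change of 1 and 98% of those given 2, and the one in 9-month-old males, with 2 naive libraries, found 9% and 64%. The changed genes were drawn from those above a minimum expected count, so these shares do not cover genes with few counts. No other group was simulated.

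Age and sex were compared to ask whether the CSF genes differed between mice of the same day. No member was called in any of the 13 comparisons of age, of sex or of their interaction with day (edgeR, adjusted p under 0.1). DESeq2 called 0 as well. Of these 78 tests of members 4 had an unadjusted edgeR p under 0.05. Over all genes, 479 to 1827 of 13584 had such a p in each of these comparisons. Between 9 and 3 months the share of all genes called was 0% in naive, 1.65% in day 12 and 0% in day 28 microglia, and between 18 and 3 months it was 0.11%, 1.97% and 0.0442%. Between males and females it was 0.081%, 0.0589% and 0.0589%. The interaction of sex with day 12 and with day 28 called 0% and 0% of genes, and that of age called 0.155% and 0%. Where edgeR called 0 of all genes, 479 to 791 had an unadjusted p under 0.05 and DESeq2 called 3 to 19.

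The 4 tests with an unadjusted p under 0.05 were all at day 12. In the 3 comparisons that held them many genes had such a p. Of 13584 genes, 1721 did between 9 and 3 months, 1827 between 18 and 3 months and 1497 in the interaction of age with day 12. *Csf2rb* was higher at 9 than at 3 months by 0.65 on the log2 scale (SE 0.23, edgeR adjusted p = 0.165), and *Csf3r* was lower at 9 than at 3 months by the fitted value of -0.42 (adjusted p = 0.386) and at 18 months by -0.50 (SE 0.21, adjusted p = 0.252). The remaining test was of *Csf1*, the difference between its day 12 changes at 18 and 3 months given above (-1.28, edgeR adjusted p = 0.323). Single libraries decided the side of the threshold for *Csf2rb* and *Csf3r*. Without 9-month-old female day 12 replicate 1 or 9-month-old male day 12 replicate 2 the *Csf2rb* difference was called (0.73 each, adjusted p = 0.0934 and 0.0751), and without 18-month-old female day 12 replicate 1 or 18-month-old male day 12 replicate 3 the *Csf3r* difference was (-0.73 and -0.77, adjusted p = 0.0427 and 0.0374). The number of all genes called also moved over omissions of 1 library, from 53 to 556 for 9 against 3 months and from 27 to 693 for 18 against 3 months.

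No sex difference of a member passed the test, and several intervals allow sizable differences in either direction. *Csf1* was lower in males by a fitted 0.19 on the log2 scale in naive (-0.19, 95% confidence interval -0.88 to 0.50), and the difference was -0.47 at day 12 (-1.06 to 0.11) and -0.46 at day 28 (-1.06 to 0.15). For *Csf1r* the differences between males and females were -0.14, -0.06 and 0.04 at the 3 stages. The interaction of sex with day 12 was largest in size for *Csf2ra* at 0.71 (SE 0.38, edgeR adjusted p = 0.885), the gene for which 1 day 12 library of a 9-month-old male stood far above its group.

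Other ligands of these receptors were nearly absent from the sorted cells. *Csf3* was at 0 in all 62 libraries. *Csf2*, the GM-CSF gene, had counts in 0 of 19 naive, 2 of 22 day 12 and 1 of 21 day 28 libraries, with at most 5 counts, and *Il34*, the other CSF1R ligand, in 0, 3 and 2 libraries with at most 9 counts. *Il3* and *Il5* had 1 count each, in 1 day 12 library each. These genes did not pass the low-count filter. Among the 11 other CSF-family genes listed, 4 were tested. *Il3ra*, the alpha chain of the IL-3 receptor, rose at day 12 (log2 fold change 2.77, SE 0.41, edgeR adjusted p = 1.81e-07) and at day 28 (2.03, SE 0.41, adjusted p = 1.76e-04), from a median of 0.797 CPM in naive to 4.01 and 2.87 CPM. *Flt3* fell at day 12 (-1.31, SE 0.45, adjusted p = 0.0166) from a median of 2.72 to 0.795 CPM, and *Kitl*, the stem cell factor gene, gave 0.40 (SE 0.19, adjusted p = 0.0927).

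Downstream genes were described by 2 lists. Of 23 genes of CSF1R signaling and its myeloid regulators, 6 rose and 3 fell at day 12, a share near the 36% of all genes called at this day, with a median log2 fold change of 0.11 against 0.02 over all genes. The 3 with the smallest p were *Maf*, a macrophage transcription factor (-1.52, SE 0.13, edgeR adjusted p = 6.42e-15), the adaptor gene *Grb2* (0.61, SE 0.09, adjusted p = 1.93e-07) and the docking protein gene *Gab2* (1.05, SE 0.21, adjusted p = 6.16e-05). *Spi1*, which encodes PU.1, fell at day 12 (-0.28, SE 0.10, adjusted p = 0.0202) and at day 28 (-0.30, SE 0.10, adjusted p = 0.0298). At day 28 4 genes of this list rose and 3 fell, where 1222 of the 13584 genes tested rose and 886 fell (15.5% called).

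Of 16 genes of JAK-STAT signaling by the GM-CSF and G-CSF receptors, 15 were tested, 9 rose and 0 fell at day 12, where 2738 of the 13584 genes tested rose and 2152 fell (1 tested gene that did not pass had an unadjusted edgeR p under 0.05 with a negative change, *Irf4* at -1.29, adjusted p = 0.112). The median log2 fold change was 0.67. The 3 with the smallest p were *Socs3* (2.69, SE 0.29, adjusted p = 3.58e-11), *Socs1* (2.65, SE 0.32, adjusted p = 7.58e-10) and *Pim1* (3.62, SE 0.44, adjusted p = 8.65e-10), 2 feedback inhibitors of cytokine signaling and a kinase, all known targets of STAT factors. Many cytokines other than CSFs act through the same kinases. *Socs3* was 1.22 to 14.8 CPM (median 5.004) in naive, 8.17 to 193 CPM (median 24.9) in day 12 and 2.63 to 22.8 CPM (median 7.04) in day 28 libraries. *Stat5a* and *Stat5b*, the STATs of the GM-CSF receptor, gave 0.27 (SE 0.26, adjusted p = 0.475) and 0.15 (SE 0.17, adjusted p = 0.556). At day 28 3 genes were higher than naive and 1 lower, where 15.5% of all genes were called. Between day 12 and day 28 7 of the 15 fell and 0 rose, where 1398 of the 13584 genes tested fell and 1076 rose (18.2% called).

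**Figure D5:**
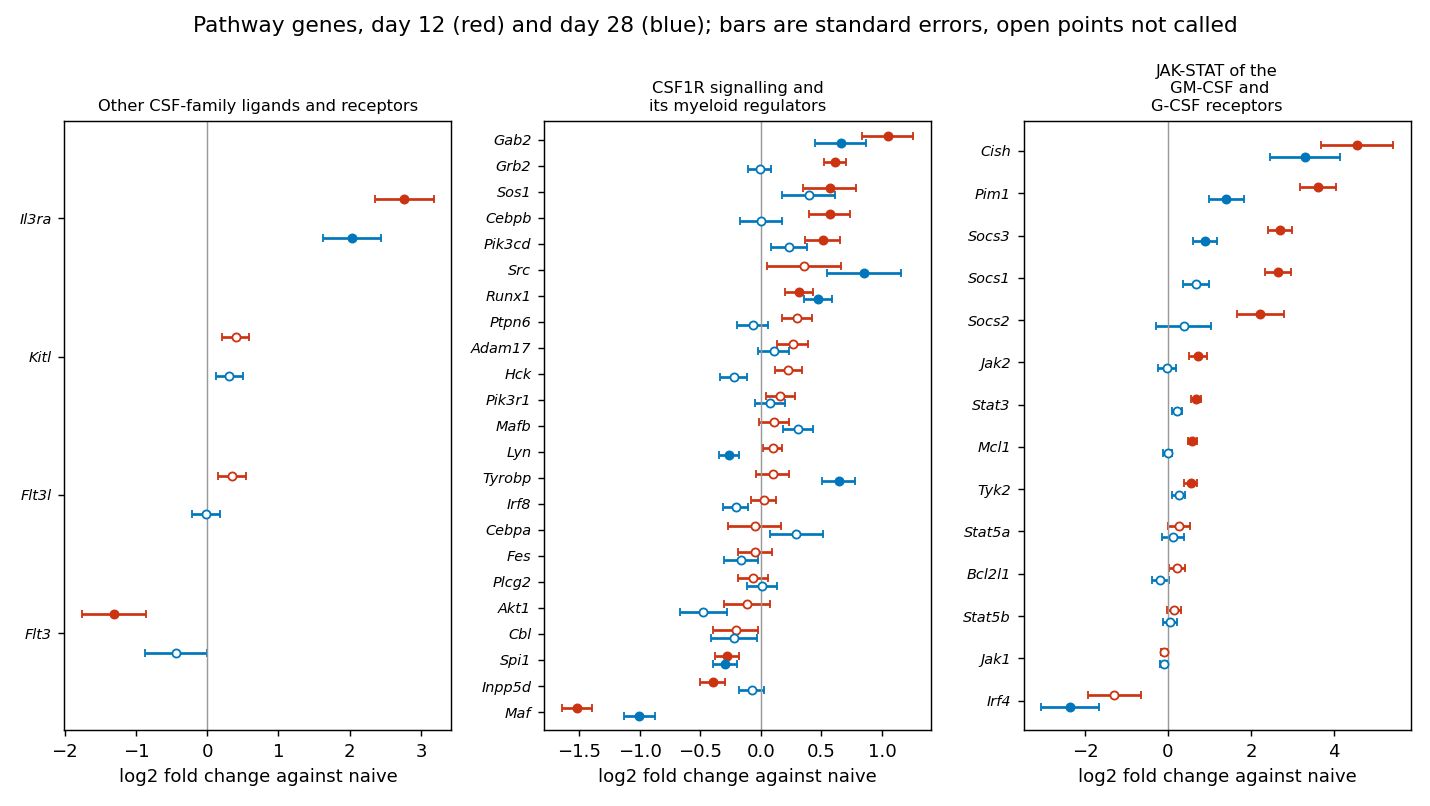
Log2 fold change from naive (points) with standard errors (bars) for the tested genes of 3 pathway lists at day 12 (red) and day 28 (blue); filled points passed the test, and *Ccl22*, whose error could not be estimated, is left out. At day 12 *Socs3*, *Socs1* and *Pim1* lie at 2.69, 2.65 and 3.62, *Maf* lies at -1.52 and *Il3ra* at 2.77.

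The genes most like each member were ranked by Pearson correlation of log2 CPM over all 62 libraries, which share their day groups and their depth. *Csf1r* was most like *Slco2b1* (r = 0.87), *Ctsf* (0.85) and *Txnip* (0.83). *Csf1* was most like *Tlk1* (0.80), *C4b* (0.80) and *Cst7* (0.77). *Csf2ra* was most like *Tap2* (0.78), *Tapbp* (0.74) and *Gm2a* (0.73). *Csf2rb* was most like *Csf2rb2* (0.88), *Zdhhc21* (0.86) and *Gdap10* (0.85), and *Csf2rb2* most like *Chd4* (0.89), *Slc15a3* (0.88) and *Csf2rb* (0.88), the last a pair whose reads can be shared. *Csf3r* was most like *Itgb5* (0.80), *Flcn* (0.75) and *Ctsd* (0.74). The order depended on the measure. By Spearman correlation *Slco2b1* and *Itgb5* kept rank 1, *Csf2rb* held rank 1 for *Csf2rb2*, and *Tlk1* and *Gm2a* held rank 3. The other genes named here ranked from 5 (*Ctsf* for *Csf1r*, *Flcn* for *Csf3r*) to 41 (*Cst7* for *Csf1*), with *Csf2rb2* at 10 for *Csf2rb*. Among the members, *Csf1r* correlated with *Csf3r* at 0.56, with *Csf2rb* at -0.61 and with *Csf1* at -0.40.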

How the data were processed

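RNA was measured by SMART-Seq v4 and Nextera XT libraries of sorted retinal microglia, sequenced as single-end reads of 75 bases. The authors demultiplexed reads with bcl2fastq 2.20, aligned them to mm10 with STAR 2.7.8a, counted them per gene with featureCounts and corrected the counts for collection day with ComBat_seq; the deposited tables hold whole-number counts per gene, uncorrected for 64 libraries and batch-corrected for 63. One library labeled 18-month-old female day 28 was left out, which leaves 62 (27 of the first and 35 of the second collection day); its *Xist* and Y-linked genes went against its labeled sex. Another, labeled 9-month-old male day 28, went against its label too and was read from the uncorrected table alone.

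CPM is the count divided by the library total. Levels per kilobase used the merged exons of GENCODE vM21, while the authors counted reads on the refGene annotation, whose exon lengths may differ. TMM scaling, filterByExpr and quasi-likelihood tests were run in edgeR 4.0.16 (R 4.3.3) in 1 fit over 18 groups, with contrasts averaged over age and sex and Benjamini-Hochberg adjustment over 13584 genes, called at 0.05 for days and 0.1 for age, sex and interactions. Standard errors are the fold change over the root of F, with 44 residual degrees of freedom in the intervals. The share of *Csf2rb2* was tested with 100000 permutations of day within age and sex. Log2 CPM for correlations used a prior count of 2. Named pathway genes are the 3 with the smallest p at day 12 in each list, others having been chosen after their values were seen.

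Steps were tested on simulated data. The replicate numbers did not pair libraries (mean correlation of deviations -0.011 for the same number, 0.004 for others), and no 2 libraries were identical. Per the methods, 3-month-old mice shared litters across sexes, 9-month-old littermates were divided between treatments, and part of the 18-month-old mice were littermates. No label ties a library to a litter, so litter was no term in the fit and p-values measure the spread between these retinas. The floor of 3 counts marks the lowest level read in a library and is no term of the edgeR tests. Members and lists were chosen with earlier results of these data known. Promoter sequences are from RefSeq (GRCm38.p6), which matched 4 members; *Csf2rb* and *Csf1r* were not matched. Alternatives were DESeq2 1.42.0, its size factors, no filter, uncorrected counts with and without collection day, ComBat_seq (sva 3.50.0) keeping the groups, glmTreat, a replicate block, each collection day alone, the library with 2 day labels at day 12, the left-out library put back, 1 fit per age and sex, each library left out in turn (with the trend and genes of the full fit kept) 2 libraries left out together, and the first collection day without 1 naive library, the last 2 added after seeing the data.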

Additional observations from a re-analysis of the deposited data

Results flagged for a closer look

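Among 54 sets of 4 libraries (6 genes in the groups with 4), 4 had a library farther from the others than Dixon's 95% limit allows, and chance alone flags about 1 in 20. *Csf2ra* was 486 CPM in 9-month-old male day 12 replicate 1, where the other libraries held 48.7 to 62.7 CPM. *Csf1r* was 2889 CPM in 3-month-old female day 12 replicate 3, where the others held 1573 to 1662 CPM. *Csf2rb2* was 72.4 CPM in 9-month-old female day 28 replicate 1, against 26.9 to 31.7 CPM in the others. *Csf3r* was 291 CPM in 3-month-old male day 12 replicate 2, against 150.2 to 174 CPM in the others.

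The 2 libraries that entered no comparison had *Xist* and Y-linked gene levels that go against their labeled sex (255 and 0 CPM in the one labeled 9-month-old male, 0 and 388 CPM in the one labeled 18-month-old female), so their groups are in doubt. They were read in the uncorrected counts and set beside the 19 naive libraries on the same scale. Both were above the highest naive library for 3 members. In the library labeled 9-month-old male day 28 replicate 1, *Csf1* was 20.6 CPM (highest naive 12.8), *Csf2rb* 91.1 CPM (highest naive 79.1) and *Csf2rb2* 38.2 CPM (highest naive 26.1). In the library labeled 18-month-old female day 28 replicate 1, *Csf1* was 14.03 CPM, *Csf2rb* 98.8 CPM and *Csf2rb2* 35.1 CPM. *Csf1r* was below the lowest naive library (1647 CPM) in both, at 1410 and 1309 CPM. *Csf2ra* lay within the naive range (24.6 to 112.7 CPM) in both, at 54.6 and 55.6 CPM. *Csf3r* was 202 CPM in the first, within the naive range, and 113 CPM in the second, below the lowest naive library (120.3 CPM).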

How the results depend on the processing

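At day 12 and day 28 the number of members called was 5 with every alternative run except these: a test against a log2 fold change of 1 (glmTreat) left 2 (*Csf1* and *Csf2rb2*) and 1 (*Csf1*), the first collection day alone left 4 and 4, uncorrected counts without a batch term left 4 at day 28, and single libraries left out gave 5 at day 12 and 4 to 5 at day 28. Between day 28 and day 12 the 2 calls became 0 with glmTreat and on the first collection day alone, 1 with the library of 2 day labels placed at day 12, and 1 to 2 with single libraries left out. Within age and sex the 14 calls became 25 without the filter and 3 with glmTreat, while the share of all genes called was 4.04%, 3.97% and 0.848%. DESeq2 called 21 there, with 6.51% of all genes. Uncorrected counts without a batch term gave 11, with 2.56% of all genes. On the first collection day alone, where several groups hold 1 library that is assumed to vary like the others, 1 member was called between 9 and 3 months and between 18 and 3 months in naive microglia, 3 between naive males and females, and 1 in each of the interactions of sex with day 28 and of age with day 12 and day 28. These stand beside a general rise in calls on that day: 6.91%, 16.2% and 24.9% of all genes in the naive comparisons and 11.9%, 10.1% and 7.91% in the interactions, against at most 0.155% with all libraries. Without its naive library of an 18-month-old female, a choice made after seeing the data, the first day gave 4 calls at day 12 and 3 at day 28, where *Csf1r* lost its call (-0.45, edgeR adjusted p = 0.207), and 2803 and 1079 genes in all. Between 9 and 3 months at day 12, 1 member (*Csf2rb*) was called without the filter and with 2 libraries left out together (the range of all genes called over such alternatives is given below). Leaving out single libraries gave 0 to 1 call between 9 or 18 and 3 months at day 12. Over these omissions the number of all genes called ran from 53 to 556 and from 27 to 693. The *Csf2rb2* share differed by 2.92 points at day 12 (permutation p = 0.531) and 6.08 at day 28 (p = 0.194) on the first day alone, and by 3.30 to 5.25 and 3.23 to 5.18 points with single libraries left out, where 2 and 10 of 62 omissions ended the call.

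Directions that turned were all of changes that were not called. *Csf3r* was -0.094 at day 12 on the second collection day, -0.0033 at day 28 with the library of 2 day labels at day 12 and -0.0030 with the left-out library put back, and 0.12 from day 12 to day 28 on the second day. *Csf1* from day 12 to day 28 was 0.028 with ComBat_seq keeping the groups, 0.074 with the library of 2 day labels at day 12, 0.40 on the first day and 0.039 without 2 libraries, and *Csf2ra* was 0.0037 on the second day. With single libraries left out, *Csf3r* ran from -0.019 to 0.13 at day 12, from -0.011 to 0.086 at day 28 and from -0.083 to 0.048 between the days, and *Csf1* from -0.089 to 0.028 between the days. The cause was not tested.

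With the replicate number as a block the members called stayed at 5, 5 and 2, and at 14 within age and sex, though the calls there were not all of the same genes. Over all genes, glmTreat called 1021, 311 and 228 in place of 4890, 2108 and 2474 in the 3 day comparisons, the first collection day alone called 456 in place of 2474, and DESeq2 called 5043, 2344 and 2666. For age at day 12 the counts of 224 and 268 moved to between 0 and 612 and between 2 and 580 over the alternatives that did not leave out a single library. *Csf1* in naive libraries rests on 0 to 63 counts, which limits its fold change.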
